A study of Mus musculus with 15 samples.

Results

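The genes described here are 35 listed genes of homologous recombination and of the Fanconi anaemia pathway. They were listed by name, with earlier results of these data known. All 35 were among the 20453 genes of the table and all 35 passed the filter on low counts, which kept 14542 genes. The libraries are RNA of bone marrow cells, sorted from C57BL/6 mice with an inducible human MLL-AF9 cDNA, a fusion gene that drives acute myeloid leukaemia. The mice came from A2Lox-cre cells that received the cDNA, were backcrossed to C57BL/6, and double heterozygous females were used, and this description is the same for every library. The 14 libraries compared form the groups LTearly (4), LTlate (3), BMTGMP (3) and wtGMP (4). Gates for granulocyte-macrophage progenitors (GMP) and long-term haematopoietic stem cells are both given in the labels, after mature cells were depleted through Ter119, Gr-1, B220, Cd11b and Cd5. The labels give no age, do not spell out the group names, and do not say which gate each library came from or whether replicates are separate animals. wtGMP was read as wild-type GMP, and LTearly, LTlate and BMTGMP are called the leukaemia groups after the title of the study. Another library, M2grLT3, has a title that says LTearly and a column name that says LTlate, so it entered no comparison.

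Homologous recombination repairs a broken chromosome by copying the undamaged sister, and so acts mainly in cells that have replicated their DNA. The kinases ATM and ATR sense breaks and stalled forks, nucleases trim the ends, and BRCA1, PALB2 and BRCA2 load the recombinase that invades the sister. The Fanconi pathway unhooks crosslinks between the strands and hands the break on to recombination, and inherited loss of its genes in humans causes bone marrow failure and a high risk of myeloid leukaemia.

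Counts on named genes ran from 2469452 to 15092528 per library, with 2696036 to 8695227 in LTearly, 11569325 to 15092528 in LTlate, 4555960 to 10712578 in BMTGMP and 2469452 to 6978682 in wtGMP, so depth differed between groups. Levels are in CPM, counts brought to a common library total with TMM scaling, each change is a log2 fold change with its standard error (SE), and a gene is called where edgeR's quasi-likelihood test gave a Benjamini-Hochberg adjusted p under 0.05 over all genes tested. The spread behind a p-value is that of these samples and may be technical. Of 105 pairs of libraries, 0 were identical. Over 12 progenitor and primary granule markers of GMP the sum was 1536.2 to 6865.2 CPM in LTearly, 1618.0 to 2171.8 CPM in LTlate and 8406.8 to 12174.3 CPM in BMTGMP, against 19548.5 to 23002.2 CPM in wtGMP. Most of this sum was Mpo, with a mean of 2058.4 CPM in LTearly, 395.9 CPM in LTlate, 7679.0 CPM in BMTGMP and 17579.8 CPM in wtGMP. Against wtGMP, edgeR called 8 of the 12 lower and 2 higher in LTearly, 4 lower and 1 higher in LTlate, and 1 lower and 2 higher in BMTGMP, and Cebpe was called higher in each. Markers of late neutrophils were higher. Over 13 such markers in the table the sum was 19868.6 to 30877.5 CPM in LTearly, 5905.0 to 13437.4 CPM in LTlate and 1837.2 to 9605.1 CPM in BMTGMP, against 87.7 to 236 CPM in wtGMP. Of these 13, 13 were called higher in LTearly than in wtGMP by edgeR, 12 in LTlate and 10 in BMTGMP. None of them was at 0 on average in any group. Stem cell markers summed to at most 82.2 CPM in any of the 14 libraries, with Slamf1 at a mean of 0.89 CPM in LTearly, 0 CPM in LTlate, 0.139 CPM in BMTGMP and 0 CPM in wtGMP. Members of this list differed in their order, with Mecom at 20.4 to 34.2 CPM in LTearly, 0 to 5.82 CPM in LTlate, 0 to 0.841 CPM in BMTGMP and 0 to 3.82 CPM in wtGMP, not called in LTearly against wtGMP by edgeR (adjusted p = 0.0756). Gata2 averaged 6.94 CPM in LTearly, 27.1 CPM in LTlate, 2.16 CPM in BMTGMP and 12.6 CPM in wtGMP. Of the 6 stem cell markers tested, Mllt3 was called lower in each leukaemia group than in wtGMP and 0 were called higher. B cell markers summed to at most 17.4 CPM and T and NK cell markers to at most 24.2 CPM.

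Summed over the 35 genes, the level was lowest in LTearly and highest in wtGMP. The LTearly libraries held 1547.6, 2276.9, 1683.6 and 2246.9 CPM, the LTlate libraries 2027.7, 2214.7 and 2705.7 CPM, the BMTGMP libraries 2897.0, 2564.4 and 2947.8 CPM, and the wtGMP libraries 3174.1, 2908.4, 2833.6 and 3319.2 CPM. Every LTearly and LTlate library lay below every wtGMP library, while BMTGMP overlapped wtGMP, and LTearly overlapped LTlate. In wtGMP the largest parts of the sum were Rad50, Topbp1 and Msh6, with means of 580.3, 449.5 and 315.8 CPM. In LTearly these genes averaged 308.4, 298.6 and 147.9 CPM, and the difference in the sum rests largely on them. Gene by gene, 19 of the 35 had their lowest group mean in LTearly, 11 in LTlate, 1 in BMTGMP and 4 in wtGMP. The highest group mean lay in LTearly for 2 genes, in LTlate for 0, in BMTGMP for 16 and in wtGMP for 17. Such counts were not made over all genes tested. In bulk RNA, fewer cells of a type and less RNA per cell cannot be told apart, and this holds for every difference below.

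**Figure D1:**
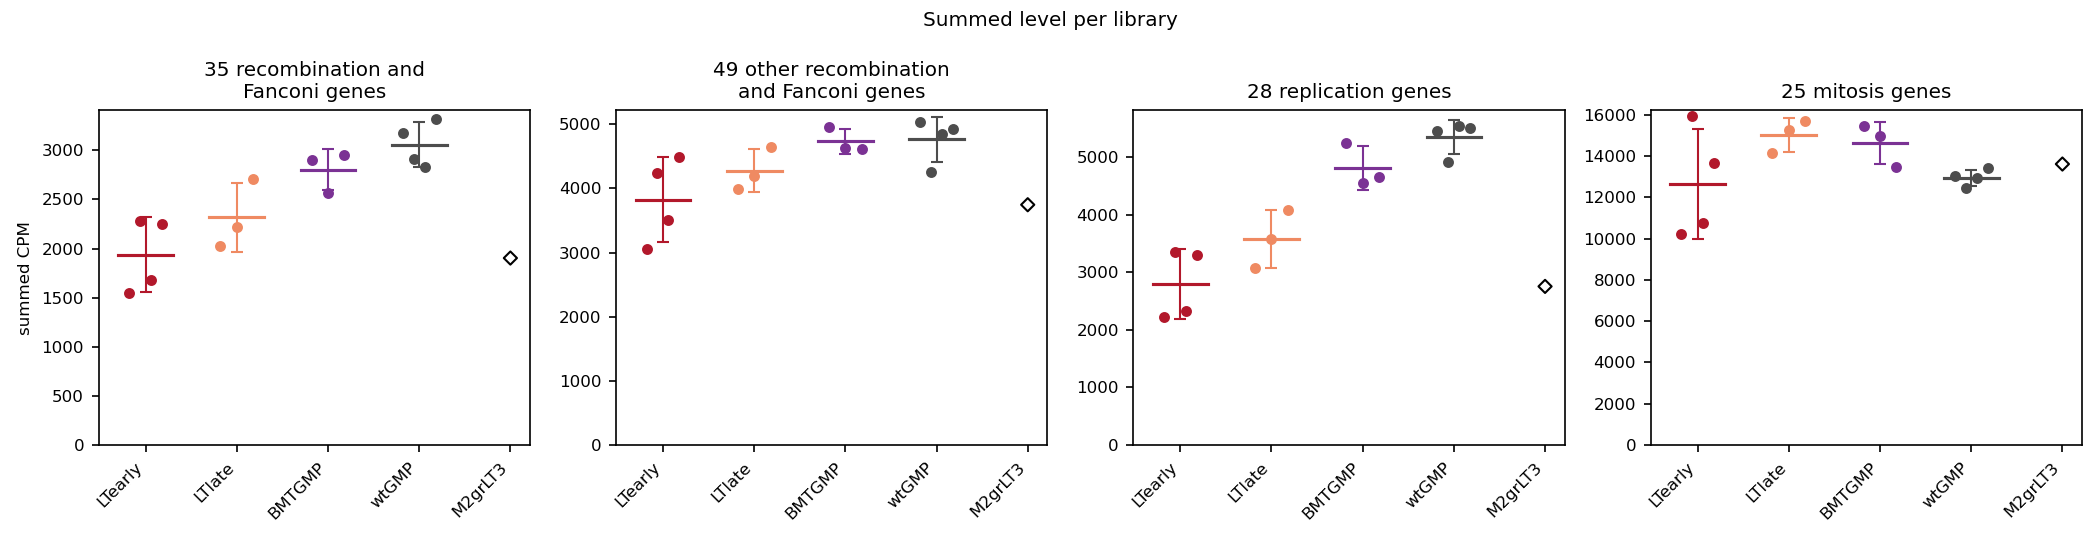
Summed CPM (y axis) of the 35 recombination and Fanconi genes, of 49 other genes of these pathways, of 28 replication genes and of 25 mitosis genes, by group on the x axis. Points are libraries, horizontal lines group means, bars ± SD, and the open diamond is library M2grLT3. The LTearly points of the 35 genes, 1547.6 to 2276.9 CPM, lie below all wtGMP points, 2833.6 to 3319.2 CPM.

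Per kilobase of transcript, which allows genes to be compared, Rad50 had the highest level, at 59.8 ± 15.2 CPM per kb in LTearly, 77.2 ± 15.3 in LTlate, 90.2 ± 11.5 in BMTGMP and 113 ± 12.1 in wtGMP (mean ± SD). Topbp1 came next, at 57.2 ± 16.4 CPM per kb in LTearly and 86.0 ± 7.97 in wtGMP, which in LTearly lay within the SD of Rad50. Msh6 followed with 34.8 ± 11.4 CPM per kb in LTearly and 74.3 ± 6.00 in wtGMP. The lowest level in LTearly was that of Fancc, at 1.42 ± 1.08 CPM per kb in LTearly and 3.50 ± 1.60 in wtGMP. The lowest in wtGMP were those of Rad51c, at 2.04 ± 1.36 CPM per kb in LTearly and 0.889 ± 0.501 in wtGMP, and of Fancf, at 3.35 ± 0.929 in LTearly and 1.001 ± 0.811 in wtGMP. Counts behind the lowest genes are few, with 26 counts of Fancf and 69 of Rad51c in all 4 wtGMP libraries together. The coefficient of variation between libraries of a group had a median over the 35 genes of 32.7% in LTearly, 23.6% in LTlate, 18.8% in BMTGMP and 24.6% in wtGMP.

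Promoters were searched for words of cell cycle factors. E2F factors switch on genes of DNA synthesis and repair as cells enter the S phase. The words TTTCCCGC, TTTCGCGC, TTTGCCGC and TTTGGCGC were searched on both strands. Windows ran from 250 bases before to 50 bases after each start listed in RefSeq (GRCm38.p6), which gave 32 promoters for 29 of the 35 genes. A gene was counted where any of its promoters held a word. At least 1 word stood in 7 of these 29 genes (24.1%): Bard1, Brca2, Chek2, Fancg, Msh6, Rad51c and Topbp1. The share was 4.32% of 11651 tested genes with a promoter and 2.26% of 32851 promoters. The CCAAT box stood in 62.1% of the 29 genes and in 43.5% of tested genes, and the word TTTGAA, part of the element bound at many mitotic genes, in 10.3% and 16.1%. A match is a description and not a binding site. Shown are the 4 genes with the smallest p in any comparison among those with an E2F word, each 5′ to 3′ on the strand of the gene with the word, or its reverse complement, in capitals. The windows are chr17:87974800-87975099 for Msh6, chr5:150522371-150522670 for Brca2, chr9:103305077-103305376 for Topbp1 and chr5:110839733-110840032 for Chek2, all on the plus strand.
Msh6: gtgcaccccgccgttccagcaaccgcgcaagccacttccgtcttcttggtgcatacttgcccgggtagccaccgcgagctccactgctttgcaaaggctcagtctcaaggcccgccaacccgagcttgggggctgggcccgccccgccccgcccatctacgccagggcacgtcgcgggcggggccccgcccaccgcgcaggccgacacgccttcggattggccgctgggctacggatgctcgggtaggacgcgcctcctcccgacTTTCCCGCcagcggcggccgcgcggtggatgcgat
Brca2: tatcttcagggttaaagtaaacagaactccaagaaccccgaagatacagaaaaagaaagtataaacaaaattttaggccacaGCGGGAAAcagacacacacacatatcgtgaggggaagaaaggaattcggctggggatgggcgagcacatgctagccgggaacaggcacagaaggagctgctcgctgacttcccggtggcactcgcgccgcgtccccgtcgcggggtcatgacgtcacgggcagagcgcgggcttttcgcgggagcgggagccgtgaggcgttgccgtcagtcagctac
Topbp1: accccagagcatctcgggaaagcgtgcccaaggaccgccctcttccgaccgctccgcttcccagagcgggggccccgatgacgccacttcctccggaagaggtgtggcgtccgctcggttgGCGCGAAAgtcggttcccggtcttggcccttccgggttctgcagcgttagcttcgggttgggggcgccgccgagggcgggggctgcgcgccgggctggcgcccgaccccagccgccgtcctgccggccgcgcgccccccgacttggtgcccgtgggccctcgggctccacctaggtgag
Chek2: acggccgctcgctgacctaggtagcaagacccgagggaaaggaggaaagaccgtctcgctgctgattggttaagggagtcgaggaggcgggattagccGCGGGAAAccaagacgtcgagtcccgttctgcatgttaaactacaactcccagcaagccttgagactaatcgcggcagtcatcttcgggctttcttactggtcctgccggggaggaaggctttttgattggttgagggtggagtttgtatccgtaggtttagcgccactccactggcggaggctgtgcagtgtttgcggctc
In Msh6 the word begins 15 bases after the start the window was built on, and in Brca2, Topbp1 and Chek2 it begins 168, 129 and 152 bases before it. In these 3 genes that start lies inside the RefSeq gene span, which begins 324, 160 and 183 bases further upstream in Brca2, Topbp1 and Chek2, so their words begin 156, 31 and 31 bases after the start of the span. These 4 genes were picked by p and are among the 10 that were lower in LTearly, as given next.

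The first comparison asks how repair messages differ between LTearly cells and wild-type GMP. Of the 35 genes, 10 were lower in LTearly and 0 higher, with 15 lower and 1 higher at an unadjusted p under 0.05 (33.5% of all genes tested) and 0 called higher by DESeq2. The 10 included the checkpoint genes Atm, Atr, Chek2 and Topbp1, the end-trimming genes Rad50 and Exo1 and the recombinase loader Brca2. The others were its partner in strand invasion Rad51ap1, the clamp gene Fanci and the mismatch sensor Msh6. Over all genes tested, edgeR's quasi-likelihood test called 9.46% lower and 10.7% higher in this comparison. The median log2 fold change of the 35 genes was -0.46 and that of all genes tested 0.187, with 28 of the 35 below 0. The groups did not overlap for 9 lower genes and 1 higher gene, Fancf, against 10.8% and 11.1% of all genes tested. The count of called genes was 6 without LTearly replicate 1, and between 6 and 10 when each library was left out in turn.

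**Figure D2:**
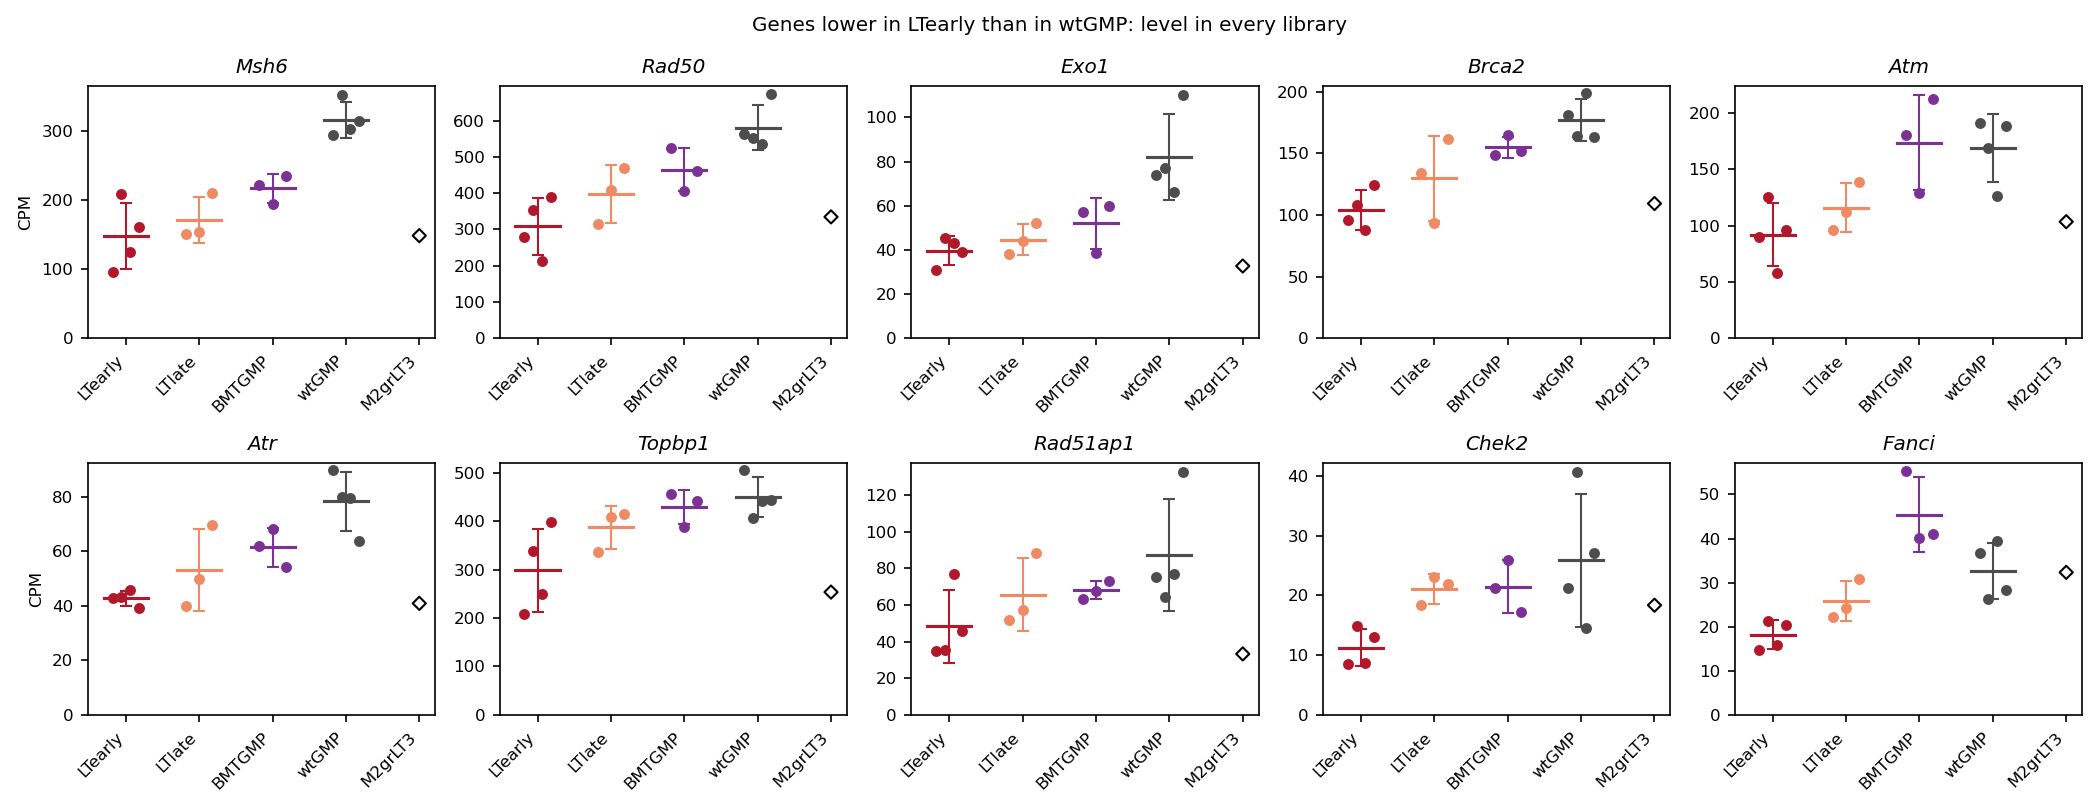
CPM (y axis) in every library for the 10 genes that were lower in LTearly than in wtGMP, ordered by p, by group on the x axis. Points are libraries, lines group means, bars ± SD, and the open diamond is library M2grLT3. At Msh6 the LTearly libraries reach 96.6 to 209 CPM and the wtGMP libraries 295 to 352 CPM, while at Chek2 and Rad51ap1 the groups overlap.

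Msh6, which recognises mispaired bases, showed the smallest p. It had 96.6, 209, 125 and 161 CPM in LTearly and 295, 352, 302 and 314 CPM in wtGMP. Every LTearly library lay below every wtGMP library, and the LTearly values spread over a wider range. The change was -1.09 ± 0.20 (adjusted p = 0.000175, edgeR's quasi-likelihood test with Benjamini-Hochberg adjustment). Its exons overlap 34 bases of Fbxo11 on the other strand. Strand-aware counting is not stated, so reads there cannot be assigned. Fbxo11 was not called in this comparison (0.47 ± 0.27, adjusted p = 0.232 by edgeR).

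Among the end-processing genes, Rad50 and Exo1 fell. Rad50, the ATPase that holds broken ends together with Mre11 and Nbn, had 279, 353, 213 and 389 CPM in LTearly and 563, 552, 535 and 672 CPM in wtGMP. The groups did not overlap, and the change was -0.91 ± 0.18 (adjusted p = 0.000476, edgeR). Exo1, which chews back one strand from a broken end, had 30.8, 45.6, 43.1 and 39.1 CPM in LTearly and 73.7, 77.3, 66.3 and 110.2 CPM in wtGMP. Again no library overlapped, with a change of -1.05 ± 0.25 (adjusted p = 0.00297, edgeR). The helicase gene Blm (-0.46 ± 0.22, adjusted p = 0.142) and Nbn (-0.24 ± 0.28, adjusted p = 0.616) were not called by edgeR.

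Of the 6 checkpoint genes, 4 fell. Atm, the kinase that signals double-strand breaks, had 89.7, 125, 57.6 and 95.9 CPM in LTearly and 191, 169, 126 and 189 CPM in wtGMP. The highest LTearly value stood just under the lowest wtGMP value, and the change was -0.87 ± 0.22 (adjusted p = 0.00532, edgeR). Atr, the kinase that signals stalled forks, had 43.0, 43.3, 45.6 and 39.0 CPM in LTearly and 89.9, 79.7, 79.5 and 63.7 CPM in wtGMP. The LTearly values were close together and apart from wtGMP, with a change of -0.88 ± 0.23 (adjusted p = 0.00733, edgeR). Antisense RNAs overlap up to 157 bases of Atr exons. Topbp1, which activates Atr, had 207, 339, 251 and 398 CPM in LTearly and 506, 406, 441 and 444 CPM in wtGMP. LTearly replicate 4 came close to the lowest wtGMP library, and the change was the smallest of the 10, at -0.59 ± 0.18 (adjusted p = 0.017, edgeR).

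Chek2, the kinase downstream of Atm, had 8.54, 14.9, 8.69 and 13.0 CPM in LTearly and 21.2, 40.6, 14.6 and 27.1 CPM in wtGMP. The groups overlapped at 1 library each, since LTearly replicate 2 lay above wtGMP replicate 3. The change was -1.18 ± 0.40 (adjusted p = 0.0332, edgeR). Chek1, the kinase downstream of Atr, had 19.0, 37.8, 3.26 and 13.3 CPM in LTearly and 24.3, 27.9, 11.0 and 28.7 CPM in wtGMP. LTearly held both the highest and the lowest value, and Chek1 was not called (-0.32 ± 0.52, adjusted p = 0.738 by edgeR). The adjusted p of Topbp1 was 0.0706 without wtGMP replicate 1, 0.0663 without LTearly replicate 1 and 0.0645 without LTearly replicate 3. That of Chek2 was 0.157 without wtGMP replicate 2, 0.0742 without wtGMP replicate 4, 0.0817 without LTearly replicate 1 and 0.0802 without LTearly replicate 3, and also 0.051 with M2grLT3 as LTearly and 0.0711 with only the groups compared, so that the call was kept in 12 of 18 alternatives.

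Among the 8 genes that load the recombinase, only Brca2 was called. Brca2, which places the recombinase on single-stranded DNA, had 95.6, 108, 87.6 and 125 CPM in LTearly and 181, 164, 199 and 163 CPM in wtGMP. The groups stood well apart, and the change was -0.76 ± 0.19 (adjusted p = 0.00413, edgeR). An antisense RNA overlaps 41 bases of Brca2 exons. Brca1, which promotes end trimming and recruits Palb2, had 113, 193, 161 and 187 CPM in LTearly and 253, 195, 186 and 267 CPM in wtGMP. The upper LTearly libraries reached the lower wtGMP libraries, and Brca1 was not called (-0.46 ± 0.19, adjusted p = 0.0848 by edgeR). With M2grLT3 as LTearly it was called lower (-0.51, adjusted p = 0.0383 by edgeR). The other 6 (Bard1, Palb2, Rad51b, Rad51c, Xrcc2 and Xrcc3) ran from -1.57 ± 0.81 for Rad51b to 1.17 ± 0.73 for Rad51c, both with few counts.

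The strand invasion partner Rad51ap1 had 34.6, 35.5, 77.1 and 45.7 CPM in LTearly and 75.5, 64.1, 76.6 and 133 CPM in wtGMP. LTearly replicate 3 lay inside the wtGMP range, and the change was -0.86 ± 0.28 (adjusted p = 0.0274, edgeR). Without wtGMP replicate 4, which held the highest value, it was -0.56 (adjusted p = 0.182). The adjusted p was also 0.083 without LTearly replicate 1, 0.0866 without LTearly replicate 2 and 0.0532 without LTearly replicate 4. It was 0.0582 by DESeq2, 0.051 with median-ratio size factors, 0.0697 with only the groups compared and 0.0576 with transcripts summed, and the call was kept in 10 of 18 alternatives. Rad54l and Rad54b, motor proteins that remodel the invading filament, were not called (-0.31 ± 0.31 and -0.20 ± 0.34).

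Of the Fanconi genes, Fanci was lower. Fanci, which forms with Fancd2 the clamp that closes on crosslinked DNA, had 14.7, 21.4, 15.9 and 20.5 CPM in LTearly and 36.7, 26.3, 39.4 and 28.4 CPM in wtGMP. All LTearly libraries lay below all wtGMP libraries, with a change of -0.85 ± 0.30 (adjusted p = 0.0455, edgeR). This call was kept in 6 of 18 alternatives. Without wtGMP replicates 1, 3 or 4 the adjusted p was 0.111, 0.141 and 0.0616, and without LTearly replicates 1 or 3 it was 0.109 and 0.0992. Polg, whose exons overlap those of Fanci on the other strand, was not called here (0.47 ± 0.20, adjusted p = 0.106 by edgeR). The partner Fancd2 had 19.7, 43.8, 19.5 and 45.1 CPM in LTearly and 54.6, 41.8, 40.3 and 72.3 CPM in wtGMP. The LTearly libraries split into a low and a high pair, the high pair inside the wtGMP range, and Fancd2 was not called (-0.70 ± 0.32, adjusted p = 0.122 by edgeR). Of the 7 genes of the core complex that marks the clamp with ubiquitin, 0 were called by edgeR, 1 had an unadjusted p under 0.05, and their median change was 0.005. DESeq2 also called 0 of the 7. The gene with the low p was Fanca (0.64 ± 0.30, adjusted p = 0.13), which was called higher without LTearly replicate 3 (0.83, adjusted p = 0.0493).

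The 3 junction nuclease genes were not called in LTearly. Eme1, the partner of the nuclease Mus81, had the lowest value of them (-0.88 ± 0.35, adjusted p = 0.0774 by edgeR). It was called by edgeR without LTearly replicate 4 (-1.14, adjusted p = 0.0299). The adjusted p was 0.0483 with no low-count filter and 0.0387 with libraries thinned to the lowest total. Msh6, Rad50, Exo1, Brca2, Atm and Atr stayed lower with an adjusted p under 0.05 in all 18 alternatives run for this comparison.

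**Figure D3:**
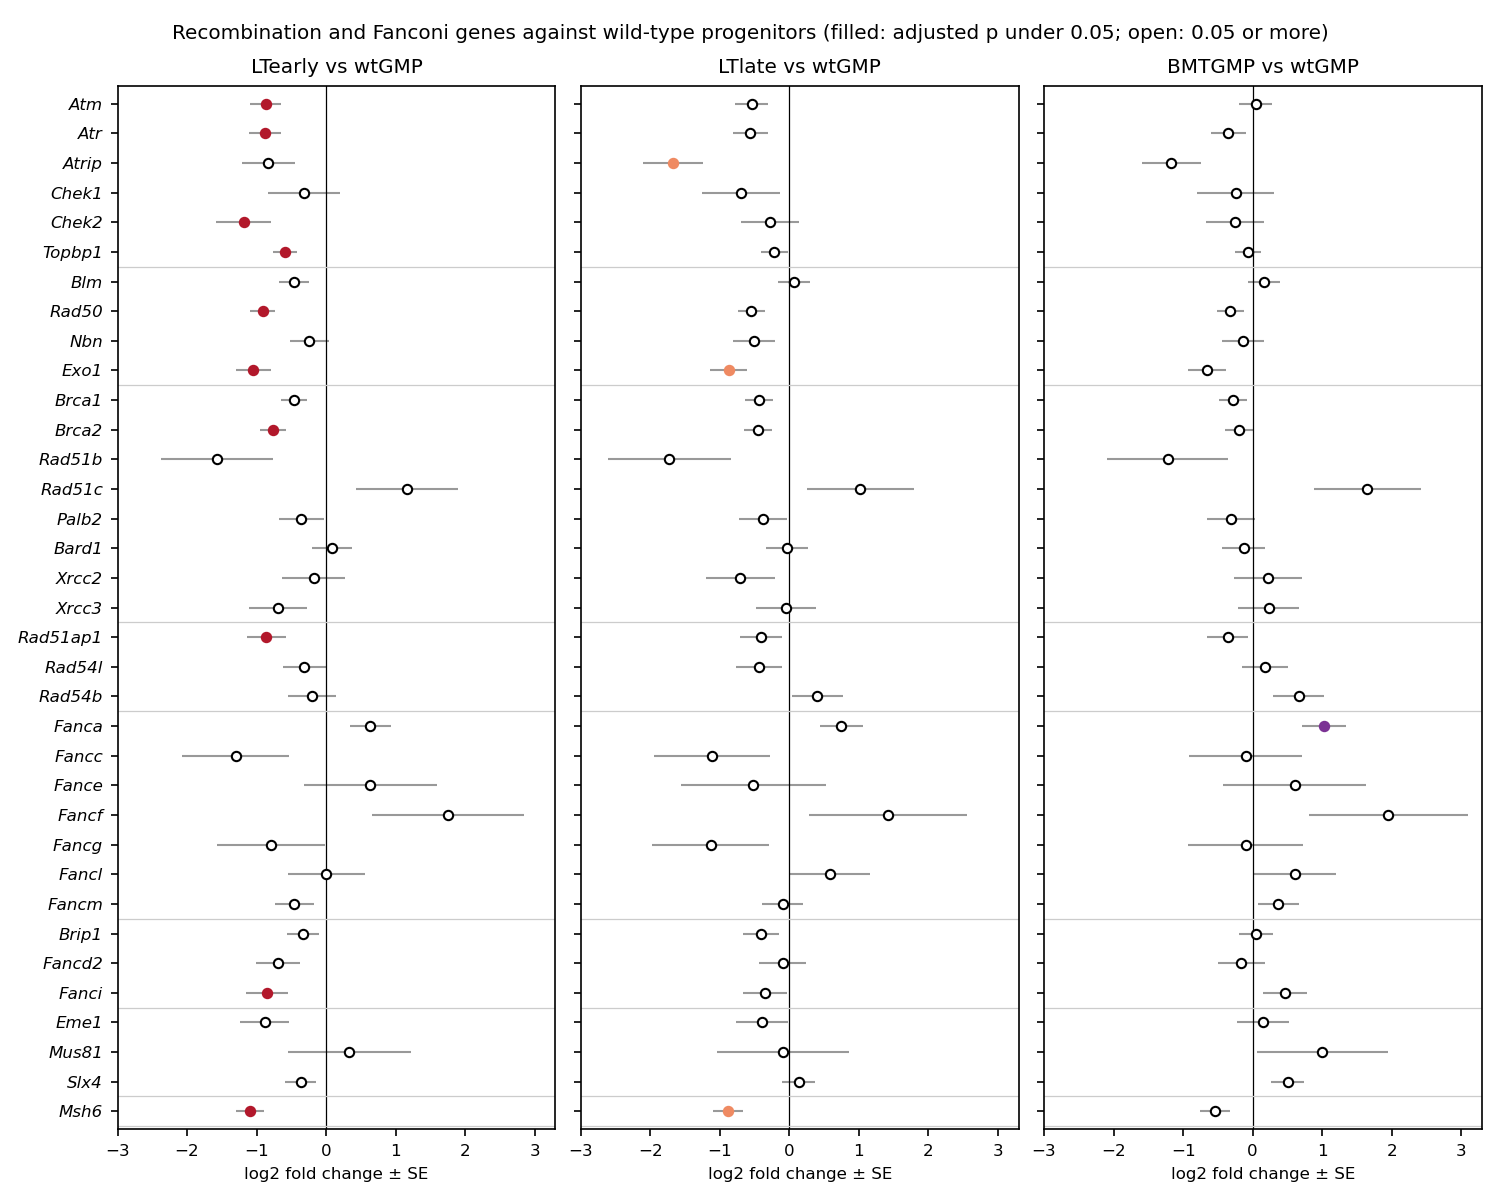
Log2 fold change ± SE (x axis) of each of the 35 genes, in rows grouped by role between thin lines, for LTearly, LTlate and BMTGMP against wtGMP. Filled points have an adjusted p under 0.05 by edgeR and open points do not, and 10 points are filled in the LTearly panel, 3 in the LTlate panel and 1 in the BMTGMP panel.

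In LTlate, 3 of the 35 genes were lower than in wtGMP and 0 higher, with 8 lower and 1 higher at an unadjusted p under 0.05 (24.0% of all genes tested) and 0 called higher by DESeq2. Here edgeR called 3.01% of all genes tested lower and 7.65% higher. The genes were Atrip, Msh6 and Exo1. The median change of the 35 genes was -0.41, with 28 of 35 below 0, and that of all genes tested was 0.007. The groups did not overlap for 8 lower and 2 higher genes, against 10.6% and 15.3% of all genes tested. Markers of late neutrophils and of GMP differed between these groups too, in the ranges given above. Their part, and that of the other marker lists, in these results and in those on LTearly and BMTGMP was not tested.

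Atrip, which brings Atr to single-stranded DNA, had 17.2, 6.11 and 11.4 CPM in LTlate and 32.1, 38.2, 32.7 and 44.6 CPM in wtGMP. All LTlate libraries lay well below all wtGMP libraries, and the change was -1.67 ± 0.43 (adjusted p = 0.00995, edgeR). In the other groups Atrip had 17.1, 25.3, 10.1 and 29.9 CPM in LTearly (-0.83 ± 0.39, adjusted p = 0.131) and 16.8, 18.1 and 14.1 CPM in BMTGMP (-1.17 ± 0.43, adjusted p = 0.107). All 10 leukaemia libraries lay below all 4 wtGMP libraries, and the differences between LTearly and LTlate (0.84 ± 0.42, adjusted p = 0.422) and between LTlate and BMTGMP (-0.50 ± 0.44, adjusted p = 0.795) did not pass edgeR's test. Without LTlate replicate 3, the lowest library, the adjusted p in LTlate was 0.0855.

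Msh6 had 150.1, 153 and 209.5 CPM in LTlate, with a change against wtGMP of -0.88 ± 0.21 (adjusted p = 0.00601, edgeR). No LTlate library overlapped wtGMP. The adjusted p was 0.0536 without LTlate replicate 2. Exo1 had 37.9, 43.9 and 52.1 CPM in LTlate, again apart from wtGMP, with a change of -0.87 ± 0.27 (adjusted p = 0.0336, edgeR). Its adjusted p was 0.195, 0.122 and 0.056 without LTlate replicates 2, 3 and 4 and 0.133 without wtGMP replicate 4. The number of genes called was 1 without LTlate replicate 2 or 3 and 5 when only the LTlate and wtGMP libraries were fitted, which added Rad50 and Atm. Rad50 had 314, 409 and 471 CPM in LTlate (-0.54 ± 0.20, adjusted p = 0.0746 by edgeR), below every wtGMP library, and DESeq2 called it (adjusted p = 0.0153). Brca2 had 134, 93.7 and 162 CPM in LTlate (-0.45 ± 0.20, adjusted p = 0.18) and Brca1 161, 142.5 and 196 CPM (-0.43 ± 0.20, adjusted p = 0.192). Fancd2 had 35.4, 42.9 and 68.7 CPM in LTlate, 1 library below the range of wtGMP and the others within it (-0.09 ± 0.34, adjusted p = 0.933), and Chek1 8.08, 10.8 and 23.6 CPM (-0.69 ± 0.56, adjusted p = 0.503).

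In BMTGMP, 1 of the 35 genes was higher than in wtGMP and 0 lower, with 3 higher and 3 lower at an unadjusted p under 0.05 (19.4% of all genes tested) and 0 called lower by DESeq2. Here edgeR called 4.35% of all genes tested higher and 2.17% lower. The higher gene was Fanca, a member of the Fanconi core complex and the gene most often mutated in human Fanconi anaemia. The median change of the 35 genes was -0.07, with 17 above 0 and 18 below, and that of all genes tested was 0.058. Groups did not overlap for 4 higher and 4 lower genes, against 10.8% and 8.47% of all genes tested.

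Fanca had 38.8, 62.8 and 75.9 CPM in BMTGMP and 26.2, 20.3, 36.5 and 32.5 CPM in wtGMP. Every BMTGMP library lay above every wtGMP library, the lowest by little, and the change was 1.03 ± 0.31 (adjusted p = 0.0458, edgeR). In LTearly it had 40.3, 65.9, 28.2 and 45.3 CPM, and in LTlate 45.5, 43.6 and 57.1 CPM (0.75 ± 0.31, adjusted p = 0.139). LTearly replicate 3 was the sole leukaemia library of the 10 within the wtGMP range. The BMTGMP call was kept in 8 of 17 alternatives. Without BMTGMP replicates 2 or 4 the adjusted p was 0.136 and 0.28, and without wtGMP replicates 1, 2 or 4 it was 0.107, 0.128 and 0.0671. With libraries thinned to the lowest total it was 0.129. An exon of Zfp276 on the other strand overlaps 250 bases of Fanca, and Zfp276 averaged 31.1 ± 0.525 CPM in BMTGMP and 20.4 ± 10.1 CPM in wtGMP (0.59 ± 0.36, adjusted p = 0.381 by edgeR).

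**Figure D4:**
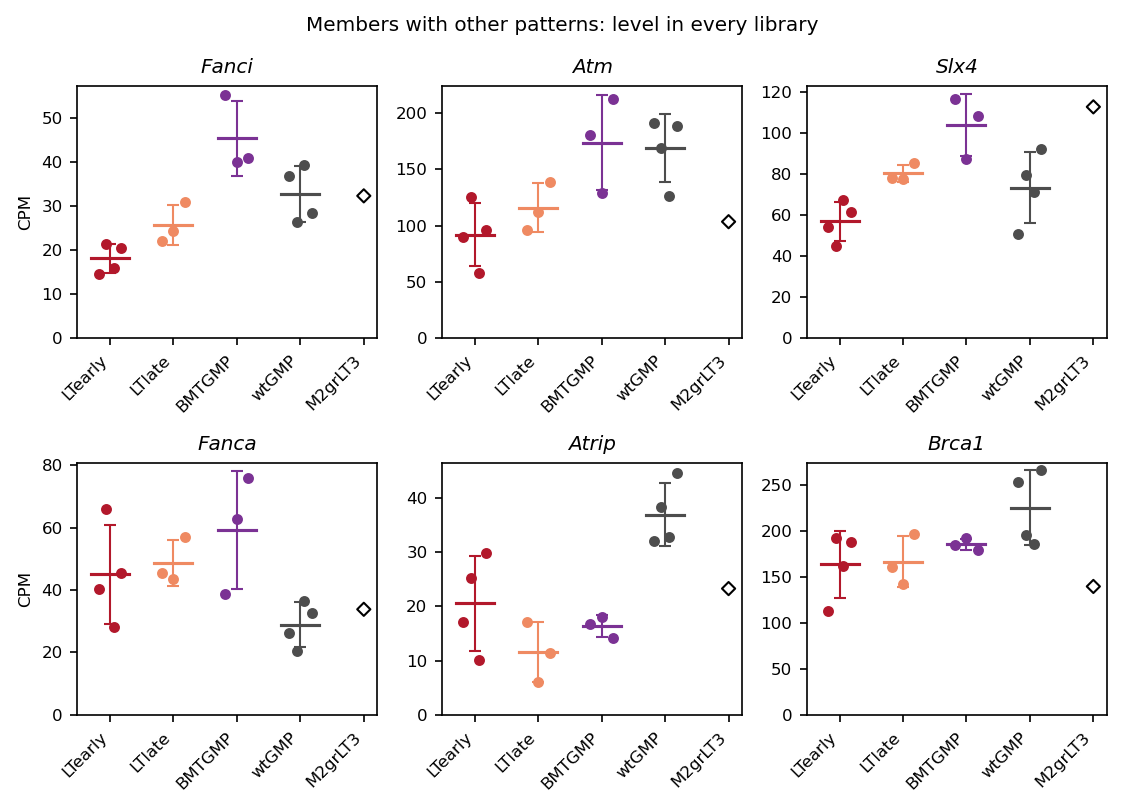
CPM (y axis) in every library for Fanci, Atm, Slx4, Fanca, Atrip and Brca1, by group on the x axis. Points are libraries, lines group means, bars ± SD, and the open diamond is library M2grLT3. At Fanci and Slx4 the BMTGMP libraries lie above all LTearly libraries, at Fanca they lie above all wtGMP libraries, and at Atrip all leukaemia libraries lie below wtGMP.

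The genes lower in LTearly were not called in BMTGMP. Msh6 had 221, 194 and 235 CPM in BMTGMP, below every wtGMP library (-0.54 ± 0.21, adjusted p = 0.147 by edgeR), and Exo1 had 57.4, 38.6 and 60.1 CPM (-0.65 ± 0.27, adjusted p = 0.17). When only BMTGMP and wtGMP were fitted, Msh6 and Atrip were called lower (adjusted p = 0.0294 and 0.0295) beside Fanca. Atm had 180.3, 129 and 212 CPM in BMTGMP, inside and above the range of wtGMP (0.04 ± 0.24, adjusted p = 0.968). Brca2 had 149, 165 and 152 CPM (-0.19 ± 0.20, adjusted p = 0.698) and Brca1 184, 192 and 179.6 CPM (-0.28 ± 0.20, adjusted p = 0.49). Fancd2 had 51.0, 36.5 and 52.4 CPM (-0.16 ± 0.34, adjusted p = 0.883) and Chek1 21.5, 13.9 and 22.7 CPM (-0.24 ± 0.56, adjusted p = 0.897). A p above the threshold does not show that these levels were equal.

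The leukaemia groups were also compared with each other. Between LTearly and BMTGMP, 3 of the 35 genes were lower in LTearly and 0 higher, also 0 higher by DESeq2. Here edgeR called 3.03% of all genes tested lower and 3.27% higher. The median change of the 35 genes was -0.53, with 32 of 35 below 0, and that of all genes tested was 0.075. An unadjusted p under 0.05 was seen for 14 of the 35 genes, all lower in LTearly, and for 20.2% of all genes tested. Groups did not overlap for 9 lower genes, against 8.16% of all genes tested. The late neutrophil markers summed to 19868.6 to 30877.5 CPM in LTearly and 1837.2 to 9605.1 CPM in BMTGMP, 8 of 13 being higher in LTearly, and their part in these results was not tested.

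Fanci showed the largest difference of the 3, with 14.7, 21.4, 15.9 and 20.5 CPM in LTearly and 55.2, 40.0 and 40.9 CPM in BMTGMP. The groups lay far apart, and the change was -1.32 ± 0.32 (adjusted p = 0.0117, edgeR). LTlate stood between them with 22.1, 24.3 and 30.9 CPM and did not differ by the test from LTearly (adjusted p = 0.595) or from BMTGMP (adjusted p = 0.307). Without BMTGMP replicate 1, the highest library, the adjusted p against BMTGMP was 0.0856. Exons of Fanci overlap 398 bases of Polg, the mitochondrial DNA polymerase gene on the other strand. Polg averaged 103 ± 21.0 CPM in LTearly and 127 ± 26.4 CPM in BMTGMP (-0.31 ± 0.22, adjusted p = 0.498 by edgeR). By the same test Polg was called higher in BMTGMP than in wtGMP (0.78 ± 0.22, adjusted p = 0.0263). It was also called lower in LTlate than in BMTGMP (-0.87 ± 0.23, adjusted p = 0.0471). Reads of the shared bases cannot be assigned to either gene.

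Atm had 89.7, 125, 57.6 and 95.9 CPM in LTearly and 180.3, 129 and 212 CPM in BMTGMP, apart by little (-0.91 ± 0.24, adjusted p = 0.0186, edgeR). LTlate had 95.8, 112 and 139 CPM, overlapping both. The adjusted p was 0.0629 without LTearly replicate 3, 0.0555 without BMTGMP replicate 1 and 0.0987 without BMTGMP replicate 4, and the call was kept in 13 of 17 alternatives. Slx4, the scaffold on which junction-cutting nucleases assemble, had 54.3, 44.8, 67.3 and 61.5 CPM in LTearly and 117, 87.3 and 108 CPM in BMTGMP. The groups did not overlap, and the change was -0.87 ± 0.24 (adjusted p = 0.0244, edgeR). In LTlate it had 78.1, 77.7 and 85.4 CPM and in wtGMP 50.8, 79.7, 71.5 and 92.1 CPM, so the range of wtGMP spanned part of both LTearly and BMTGMP. Without LTearly replicate 2 or BMTGMP replicates 1 or 4 the adjusted p of Slx4 was 0.071, 0.105 and 0.0704, and the call was kept in 12 of 17 alternatives. The count of called genes was 0 without BMTGMP replicate 1, 1 without BMTGMP replicate 4, 6 without LTearly replicate 4 and 1 when only these groups were fitted.

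Between LTearly and LTlate, edgeR called 0 of the 35 genes and 0.261% of all genes tested, and DESeq2 also called 0. An unadjusted p under 0.05, which 12.4% of all genes tested had, was seen for Chek2 (-0.90 ± 0.42), Blm (-0.53 ± 0.23) and Slx4 (-0.50 ± 0.24), all lower in LTearly. Chek2 in LTlate had 18.3, 23.1 and 22.0 CPM, above all LTearly libraries. Between LTlate and BMTGMP, edgeR called 0 of the 35 genes and 2.08% of all genes tested, and DESeq2 also called 0. An unadjusted p under 0.05, which 12.0% of all genes tested had, was seen for Fanci (-0.82 ± 0.34) and Atm (-0.59 ± 0.25). Polg, which shares bases with Fanci, was called lower in this comparison, as given above. Of the 35 changes 33 lay below 0, with a median of -0.37. Over all 14542 genes tested 7604 lay below 0, with a median of -0.04.

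In all, 13 of the 35 genes were called in at least 1 of the 6 comparisons and 22 in none, while 23.8% of all genes tested were called in at least 1. The 22 included most of the Fanconi core complex. Fancc, Fance, Fancf, Fancg and Fancl had group means between 1.69 and 14.8 CPM and wide standard errors, and edgeR called them in 0 comparisons, as did DESeq2. Fancm, the translocase that anchors the core complex to DNA, had 33.9, 59.7, 21.4 and 33.6 CPM in LTearly, 37.6, 45.8 and 60.0 CPM in LTlate, 60.5, 58.1 and 79.2 CPM in BMTGMP and 57.9, 45.4, 49.7 and 51.0 CPM in wtGMP. BMTGMP lay just above wtGMP in every library (0.37 ± 0.30, adjusted p = 0.559 by edgeR). By edgeR, Fancm was called lower in LTearly than in BMTGMP without LTearly replicate 2 (-1.15, adjusted p = 0.0218). The same call came with M2grLT3 as LTearly (-0.96, adjusted p = 0.0403). Rad54b averaged 22.4 ± 11.0 CPM in LTearly, 34.2 ± 3.45 in LTlate, 41.0 ± 11.1 in BMTGMP and 25.8 ± 4.81 in wtGMP, while its relative Rad54l averaged 38.7 ± 17.3 CPM in LTearly, 35.6 ± 6.88 in LTlate, 54.6 ± 13.9 in BMTGMP and 48.1 ± 8.24 in wtGMP. Bard1, the partner of Brca1, and Palb2, which links Brca1 to Brca2, had group means of 37.6 to 43.8 CPM and 27.4 to 35.6 CPM. The helicase gene Brip1 ran from 71.3 ± 17.1 CPM in LTlate to 97.8 ± 16.9 CPM in BMTGMP.

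Other genes of the same pathways were described from a list of 50, of which 49 were in the table and 48 were tested. In LTearly 9 of 48 were lower than in wtGMP and 2 higher, with a median change of -0.29. Of all genes tested, 9.46% were called lower and 10.7% higher, with a median change of 0.187. Hells, a chromatin remodeller, averaged 142 ± 45.8 CPM in LTearly and 391 ± 35.2 CPM in wtGMP (-1.46 ± 0.21, adjusted p = 8.36e-06, edgeR). Mdc1, which spreads the break signal along chromatin, averaged 178 ± 32.7 CPM in LTearly and 313 ± 17.6 CPM in wtGMP (-0.81 ± 0.18, adjusted p = 0.00146). Rev1, a polymerase that copies past damaged bases, went up in LTearly (1.46 ± 0.32, adjusted p = 0.00293) and in LTlate (1.34 ± 0.34, adjusted p = 0.0132). In LTlate 1 of 48 was lower (Hells) and 1 higher (Rev1), and in BMTGMP 0 were lower and 1 higher, Uimc1 (0.66 ± 0.20, adjusted p = 0.0384). Of all genes tested, 3.01% were lower and 7.65% higher in LTlate, and 2.17% lower and 4.35% higher in BMTGMP. Against BMTGMP, LTearly had 4 lower and 0 higher, among them Usp1, which removes ubiquitin from the Fancd2 and Fanci clamp, at 241 ± 49.4 CPM in LTearly and 385 ± 33.0 CPM in BMTGMP (-0.67 ± 0.18, adjusted p = 0.0241). In that comparison 3.03% of all genes tested were lower and 3.27% higher.

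End joining, which seals breaks without a template, was described from 13 genes. Against wtGMP, 4 were lower and 1 higher in LTearly, 1 lower and 1 higher in LTlate and 1 lower and 0 higher in BMTGMP. Shares of all genes tested called lower and higher were 9.46% and 10.7% in LTearly and 3.01% and 7.65% in LTlate. In BMTGMP they were 2.17% and 4.35%. Parp1, a break sensor, averaged 172 ± 101 CPM in LTearly and 648 ± 81.6 CPM in wtGMP (-1.91 ± 0.35, adjusted p = 0.00159, edgeR), and in BMTGMP 237 ± 59.0 CPM (-1.45 ± 0.38, adjusted p = 0.0384). Polq, which joins ends through short matches, fell in LTearly (-1.06 ± 0.20, adjusted p = 0.000221) and LTlate (-1.04 ± 0.21, adjusted p = 0.00138). Dclre1c, the hairpin-opening nuclease Artemis, rose in LTearly (1.34 ± 0.30, adjusted p = 0.00144) and LTlate (1.01 ± 0.31, adjusted p = 0.0326).

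Genes of DNA replication and of mitosis were called lower in LTearly too. Of 28 replication genes, 18 were lower and 0 higher in LTearly than in wtGMP (23 lower at an unadjusted p under 0.05, median change -0.99), 5 were lower in LTlate and 0 in BMTGMP (2 at an unadjusted p under 0.05), and 13 were lower in LTearly than in BMTGMP. Their summed level was 2218.7 to 3359.4 CPM in LTearly, 3078.7 to 4091.2 CPM in LTlate, 4554.6 to 5254.1 CPM in BMTGMP and 4922.7 to 5542.6 CPM in wtGMP. The replication helicase gene Mcm3, for example, averaged 341 ± 104 CPM in LTearly and 762 ± 62.2 CPM in wtGMP (-1.16 ± 0.18, adjusted p = 2.32e-05, edgeR). Of 25 mitosis genes, 4 were lower in LTearly than in wtGMP (Bub1, Birc5, Tpx2 and Aurka) and 0 higher, with 16 lower at an unadjusted p under 0.05, 20 changes below 0 and a median change of -0.52. In LTlate and BMTGMP 0 of the 25 were called (2 and 3 at an unadjusted p under 0.05, either way). Of all genes tested, 9.46% were called lower in LTearly, 3.01% in LTlate and 2.17% in BMTGMP against wtGMP, and 3.03% in LTearly against BMTGMP. An unadjusted p under 0.05 was seen in 33.5%, 24.0% and 19.4% of them against wtGMP, in the same order. The mitosis genes summed to 10204.1 to 15926.1 CPM in LTearly, 14128.9 to 15704.6 CPM in LTlate, 13498.1 to 15449.8 CPM in BMTGMP and 12448.2 to 13407.6 CPM in wtGMP. The part of replication activity in the lower levels of the 35 genes was not tested.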

How the data were processed

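RNA sequencing (150 ng of total RNA per library in the labels' protocols) was analysed from 1 table of expected counts per RefSeq transcript that the authors deposited. The authors aligned to mm9 allowing up to 100 hits per read, per the file headers, and the submitters' processing notes name Bowtie 0.9.9.1. Of the deposited values, 13.75% were not whole (tolerance 1e-06). Strand-aware counting is not given in the sources used here. Of 28847 transcripts, 26092 matched a gene name, and 3.5 to 4.2% of counts per library had none and were left out. The transcript with the highest mean stood for each gene (8 of the 35 genes have several), and counts were rounded to whole numbers. All 14 libraries entered 1 fit in edgeR 4.0.16 (R 4.3.3), with TMM scaling, filterByExpr and the robust quasi-likelihood test, 2-sided, adjusted by Benjamini-Hochberg over 14542 genes for each of 6 comparisons. The scripts were tested on simulated data. DESeq2 1.42.0 and 9 other alternatives were tried, besides leaving out each library. M2grLT3 was kept apart, and 1 column that matches no sample was not used. The 35 genes and all lists were chosen with earlier results of these data known. Values in every library are given for genes called in a comparison and for Brca1, Brca2, Fancd2, Fanca, Atm and Chek1, and other genes by range. From each pathway list, up to 4 called genes with the smallest p per comparison could be named. Gene coordinates and promoters are from RefSeq on GRCm38.p6, and the mm9 positions of the files were not used. For levels per kilobase, the length was that of the longest GENCODE transcript linked to the counted RefSeq transcript. Giving every value of Fancm was chosen after its values were seen.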

Additional observations from a re-analysis of the deposited data

Results flagged for a closer look

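In wtGMP, replicate 1 stood apart from the other libraries for Rad54b, with 33.0 CPM against 24.3, 23.1 and 22.9 CPM in the others. Its gap was 0.865 of the range, over Dixon's critical value for 4 libraries, and it was the sole such case in 70 gene and group pairs of 4 libraries, where chance gives about 1 in 20.

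The change against wtGMP differed between LTearly and BMTGMP for 3 genes, by edgeR's test of the difference itself, in which wtGMP cancels. It is the comparison of LTearly with BMTGMP given above and not a further test. Without BMTGMP replicate 1, 0 of the 35 genes were called in it. The difference was -0.91 for Atm (adjusted p = 0.0186), -1.32 for Fanci (adjusted p = 0.0117) and -0.87 for Slx4 (adjusted p = 0.0244), each lower in 4 of 4 LTearly libraries than in all 3 BMTGMP libraries.

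The library M2grLT3, which entered no comparison, lay above all wtGMP libraries for 3 of the 35 genes, below all of them for 22 and within their range for 10. It lay within the range of LTearly for 27 genes, of LTlate for 17 and of BMTGMP for 10. LTearly has 4 libraries and a median coefficient of variation of 32.7%. LTlate and BMTGMP have 3 each, with 23.6% and 18.8%. More libraries and more spread widen a range, so these counts do not place M2grLT3 in a group. The late neutrophil markers of M2grLT3 summed to 34164.7 CPM, and its 35 genes to 1902.7 CPM.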

How the results depend on the processing

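No called gene changed direction under any alternative. Leaving out each library in turn gave 6 to 10 of the 35 genes called in LTearly against wtGMP, 1 to 3 in LTlate against wtGMP, 0 to 1 in BMTGMP against wtGMP, 0 to 6 in LTearly against BMTGMP, and 0 to 0 in LTearly against LTlate and in LTlate against BMTGMP. Over all genes these ranges were 2340 to 3178, 921 to 1333, 686 to 891, 583 to 1269, 4 to 198 and 155 to 308. With only the groups compared in the fit, 5 of the 35 genes were called in LTlate against wtGMP (3 with all groups), 3 in BMTGMP against wtGMP (1) and 1 in LTearly against BMTGMP (3), and 2486 (1549) and 407 (917) of all genes in LTlate against wtGMP and LTearly against BMTGMP. In BMTGMP against wtGMP, 0 of the 35 were called with M2grLT3 as LTlate, with transcripts summed, with libraries thinned or with the replicate block. DESeq2 called 1423 of all genes in BMTGMP against wtGMP (947 by edgeR), 256 in LTearly against LTlate (38), 1494 in LTearly against BMTGMP (917) and 569 in LTlate against BMTGMP (303). LTearly against LTlate also gave 141 with no filter, 86 with M2grLT3 as LTearly, 0 with it as LTlate and 21 with transcripts summed. The cause of these shifts was not tested.

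The split of higher and lower calls over all genes moved with DESeq2, which changes the test as well as the scaling. Median-ratio factors in edgeR change the scaling alone. In LTlate against wtGMP the split was 1278 and 828 by DESeq2 and 1071 and 525 by median-ratio factors (1112 and 437 with TMM). In LTearly against BMTGMP it was 963 and 531 by DESeq2 and 574 and 330 by median-ratio factors (476 and 441). In LTearly against LTlate it was 178 and 78 by DESeq2 and 17 and 10 by median-ratio factors (18 and 20). In LTlate against BMTGMP it was 378 and 191 by DESeq2 and 211 and 65 by median-ratio factors (238 and 65). In LTearly against LTlate the median of all genes was 0.187 with median-ratio factors and 0.068 with TMM. The replicate numbers did not pair the libraries (r of -0.162 to 0.115 over 18 same-numbered pairs). Codes shared between titles entered no fit. With the replicate block, 9, 3, 0, 0, 3 and 0 of the 35 genes were called, and 2758, 1479, 845, 41, 806 and 312 of all genes, in the order LTearly, LTlate and BMTGMP against wtGMP, LTearly against LTlate, LTearly against BMTGMP and LTlate against BMTGMP. Low counts limit Fancf, Fance, Rad51c, Rad51b, Fancc and Mus81, whose pooled counts fell under 100 in at least 1 group.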

Other observations

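Summed by role, the genes differed in where BMTGMP stood relative to wtGMP. The 3 junction genes Mus81, Eme1 and Slx4 summed to 82.2 to 101 CPM in LTearly, 110 to 132 CPM in LTlate, 137 to 185 CPM in BMTGMP and 106 to 160 CPM in wtGMP. The 7 core genes summed to 98.1 to 140 CPM in LTearly, 115 to 142 CPM in LTlate, 154 to 214 CPM in BMTGMP and 108 to 134 CPM in wtGMP, so that BMTGMP lay above every library of the other groups. The 6 checkpoint genes summed to 376 to 589 CPM in LTearly, 516 to 681 CPM in LTlate, 644 to 763 CPM in BMTGMP and 705 to 865 CPM in wtGMP. These sums were seen in the data and carry no test, and that of the core genes is carried mostly by Fanca and Fancm.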
